A study of Mus musculus with 15 samples.

Results

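GABA-A receptors are chloride channels built from 5 subunits, and GABA, the main inhibitory transmitter of the adult brain, opens them. Most hold α subunits, β subunits and either a γ or a δ subunit, and the α subunit sets much of where a receptor sits and how it responds. The genes described here are *Gabra2*, *Gabra3*, *Gabra4*, *Gabra5*, *Gabrb1*, *Gabrb2* and *Gabrd*, which encode the α2, α3, α4, α5, β1, β2 and δ subunits. They were chosen by gene symbol. All 7 were found among the 55471 gene IDs of the count table, and all 7 were among the 16171 genes that passed the filter on low counts.

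Bulk RNA sequencing measured polyA RNA of the whole hippocampus of female mice aged 3 months, in 15 libraries. The first batch held wild-type mice (WT), APP-TKI mice (genotype AppNL-G-F/NL-G-F) and double mutant mice (DM) with the same *App* alleles and Apoe4+/wt, and the second held its own WT mice and ApoE4 mice (ApoE4+/wt), with 3 libraries a group. In APP-TKI mice both alleles of *App*, the gene of the amyloid precursor protein, carry the mutations as a knock-in at the mouse locus, so *App* is not driven by a foreign promoter. ApoE4 and DM mice are heterozygous for a human *APOE4* knock-in and keep a mouse *Apoe* allele. The study counts these groups in mice, while the labels name no animals, so the p-values below measure the spread between libraries, each taken as a mouse.

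Pyramidal and granule neurons of the hippocampus carry most of these subunits. Receptors with α2 are known at synapses on the cell body and at the start of the axon, and those with α5 are best known outside synapses on pyramidal dendrites. Receptors with α4 and δ carry a steady inhibitory current in dentate granule cells and in the thalamus, and β subunits are needed for a receptor to reach the membrane and bind GABA.

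Total counts were 32754717 to 44630808 per library. Markers of hippocampal neurons were found in every library. Summed over 8 genes each, dentate granule markers were at 451 to 558 CPM, read counts scaled to a common library total, CA1 markers at 633 to 848 CPM and CA2 and CA3 markers at 310 to 420 CPM, with none of the 24 genes at 0 in all libraries. In batch 2, ApoE4 replicate 3 had 942 CPM over 8 striatal markers, against 87 to 145 CPM in the other libraries, and WT replicate 3 had 567 CPM over 8 markers of thalamus and habenula, against 123 to 226 CPM. Choroid plexus markers summed to 3089 CPM in ApoE4 replicate 1 and 2644 CPM in WT replicate 3 of batch 2, against 135 to 320 CPM elsewhere. In batch 1, long noncoding and antisense genes took 2.65 to 2.88% of counts in 4 libraries (WT and DM replicate 1, APP-TKI replicates 1 and 2), 2.16 to 2.32% in the other 5 libraries, and 1.66 to 1.83% in batch 2.

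The genes lie on 5 chromosomes of GRCm38. *Gabra2* (chr5:70957597-71095849) and *Gabra4* (chr5:71569749-71658308) are on the minus strand, and *Gabrb1* (chr5:71658113-72149037) follows on the plus strand. *Gabra4* and *Gabrb1* are transcribed in opposite directions from starts that overlap, and their exons share 46 bases. *Gabra5* (chr7:57407672-57510059) is on the minus strand and shares 148 exonic bases with an antisense gene, Gm9962. *Gabrb2* (chr11:42419757-42629028) is on the plus strand, and *Gabrd* (chr4:155384980-155398112) and *Gabra3* (chrX:72432681-72656848) are on the minus strand. The libraries were directional, but whether strand was used in counting is not stated in the methods or labels, so reads in the shared bases of *Gabra4*, *Gabrb1* and *Gabra5* may have been assigned to either gene or left out.

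Promoters are shown for *Gabra3* and *Gabrb2*, whose levels varied together across libraries, and for *Gabra2*, whose level varied against that of *Gabrb2*. Each sequence is the 250 bases before a RefSeq start site (GRCm38.p6), read along the strand of the gene, and none of these bases lies in an annotated exon. Capitals mark matches on either strand to a GC box (GGGCGG) or a TATA box (TATAAA). The windows are chrX:72656920-72657169 for *Gabra3*, chr11:42420190-42420439 for *Gabrb2* and chr5:71095850-71096099 for *Gabra2*.
Gabra3: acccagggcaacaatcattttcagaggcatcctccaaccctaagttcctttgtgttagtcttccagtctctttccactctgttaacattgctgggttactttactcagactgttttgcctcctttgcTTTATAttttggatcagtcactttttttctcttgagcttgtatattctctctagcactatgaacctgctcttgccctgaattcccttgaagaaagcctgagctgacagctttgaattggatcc
Gabrb2: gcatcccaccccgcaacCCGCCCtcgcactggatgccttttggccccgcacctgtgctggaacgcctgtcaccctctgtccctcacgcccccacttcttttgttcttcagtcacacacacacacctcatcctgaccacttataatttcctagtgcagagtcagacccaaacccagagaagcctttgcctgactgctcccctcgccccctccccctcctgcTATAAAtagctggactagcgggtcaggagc
Gabra2: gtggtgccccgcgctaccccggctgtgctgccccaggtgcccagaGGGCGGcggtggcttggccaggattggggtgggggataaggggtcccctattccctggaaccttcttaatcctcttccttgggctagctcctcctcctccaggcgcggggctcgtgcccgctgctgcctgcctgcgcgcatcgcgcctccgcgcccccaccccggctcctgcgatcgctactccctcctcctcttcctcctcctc

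In the windows shown, *Gabrb2* held a TATA box on its own strand that begins 30 bases before the start, and a GC box on the opposite strand. *Gabra3* held a TATA box match on the opposite strand only, and *Gabra2* a single GC box. GC content of these windows was 42.4% for *Gabra3*, 58.8% for *Gabrb2* and 70.0% for *Gabra2*. Windows of other *Gabrb2* starts, chr11:42420524-42420773 and chr11:42420951-42421200, held no match and had 54.0% and 36.8% GC. Another *Gabra3* window, chrX:72656808-72657057, overlaps the one shown and held the same TATA box match on the opposite strand. It had 39.2% GC, with 41 bases in annotated exons. Over 32851 RefSeq windows of this length, 32.7% held a GC box and 12.4% a TATA box. A cAMP response element (TGACGTCA, in 1.55% of windows) and an Egr site (GCGTGGGCG, in 0.536%) were found in none of the 10 windows of the 6 subunit genes that had one. *Gabrd* was named without a window. No 2 of the 3 windows shown held the same set of matches, and a match is a string of letters, not evidence of a bound factor.

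*Gabra5* had the highest level per length of transcript in every group and *Gabrd* the lowest. In WT mice of batch 1, normalised CPM per kilobase of exon were 65.6 ± 2.32 for *Gabra5* (SD, n = 3), 20.9 ± 1.76 for *Gabra3*, 20.9 ± 2.12 for *Gabrb2*, 19.7 ± 0.166 for *Gabrb1*, 19.0 ± 0.681 for *Gabra4*, 16.7 ± 1.80 for *Gabra2* and 7.53 ± 0.674 for *Gabrd*. Neighbours in this order overlapped between libraries, apart from the step below *Gabra5* and the step above *Gabrd*. In ApoE4 mice the level was 58.4 ± 1.78 for *Gabra5*, 15.8 ± 3.51 for *Gabra3* and 8.48 ± 2.22 CPM per kilobase for *Gabrd*. The order of the 5 genes in the middle depended on which length was used. Divided by the longest coding transcript, *Gabrb2* came to 33.3 and *Gabra4* to 28.2 CPM per kilobase in WT mice of batch 1, ahead of *Gabra3* at 22.4, *Gabra2* at 21.8 and *Gabrb1* at 19.9, while *Gabra5* at 73.1 and *Gabrd* at 11.3 kept the ends.

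**Figure D1:**
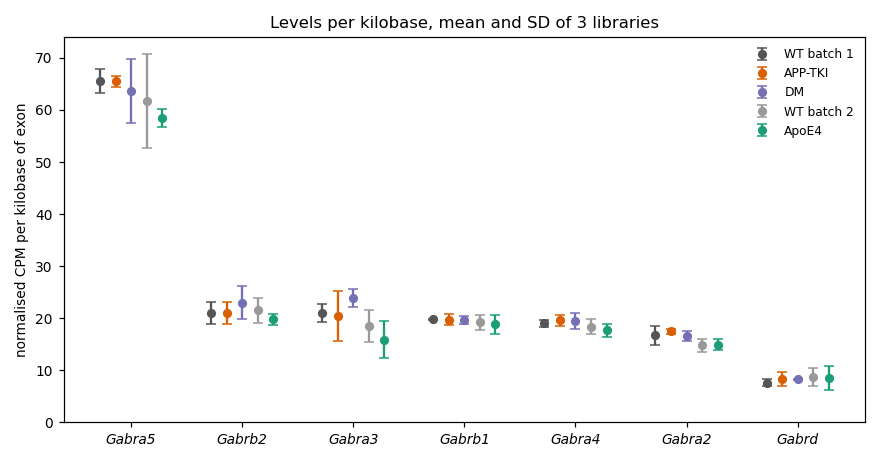
Level of each subunit gene in normalised CPM per kilobase of exon (y axis) for the 7 genes (x axis), with a point for the mean of 3 libraries of each group and whiskers for the SD. *Gabra5* stands above the others at 58.4 to 65.6 and *Gabrd* below them at 7.53 to 8.67, while the other 5 genes lie between 14.7 and 23.8.

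The study asked how mutant *App* and *APOE4*, alone and together, alter the young hippocampus. For the subunit genes the answer was given by 4 comparisons within a batch and by a test of whether the difference due to *APOE4* was the same with mutant *App* (DM minus APP-TKI) as without it (ApoE4 minus WT). With the quasi-likelihood test of edgeR, 0 of 7 subunit genes passed an adjusted p of 0.1 in any of the 5. Over all 16171 genes the share that passed was 0.0124% in DM against WT, 0.00618% in APP-TKI against WT, and 0% in DM against APP-TKI, in ApoE4 against WT and in the difference between the *APOE4* effects. At an unadjusted p under 0.05 the count was again 0 of 7 in each, where 4.55%, 3.56%, 3.78%, 5.99% and 6.85% of all genes passed. In whole tissue, fewer cells of a type and less RNA per cell cannot be told apart.

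No subunit gene had all 3 libraries of a group above or below all 3 of the other in any comparison, where 10.4% of all genes did in DM against WT, 8.27% in APP-TKI against WT, 7.93% in DM against APP-TKI and 12.2% in ApoE4 against WT. DESeq2 and the robust likelihood ratio test of edgeR likewise called 0 of 7 at an adjusted p under 0.1 in the 5 comparisons. In the same order, with the difference between the *APOE4* effects last, DESeq2 called 0.309%, 0.155%, 0.114%, 0.297% and 0.161% of all genes, and the robust test 0.841%, 0.309%, 0.328%, 0.773% and 0.748%. At an unadjusted p under 0.05, DESeq2 gave 0 of 7 in each, where 3.82%, 3.10%, 3.18%, 5.26% and 6.56% of all genes passed. The robust test gave 0 of 7 in DM against WT, APP-TKI against WT and ApoE4 against WT, where 5.34%, 4.59% and 6.36% of all genes passed. It gave 1 of 7 (*Gabra3*) in DM against APP-TKI, where 5.55% of all genes passed, and 2 of 7 (*Gabra3* and *Gabrb2*) in the difference between the *APOE4* effects, where 8.92% did.

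**Figure D2:**
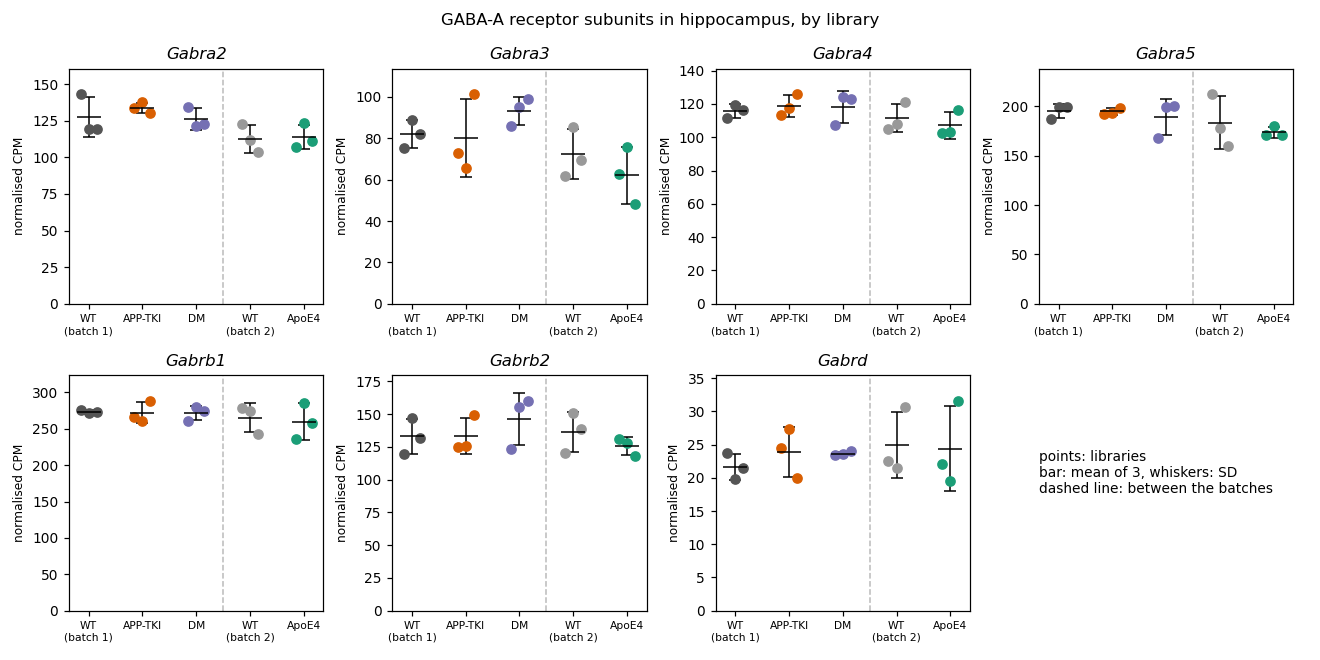
Normalised CPM (y axis, from 0) of each subunit gene in the 15 libraries, by group (x axis), with a bar for the mean of 3 libraries and whiskers for the SD. In every panel the libraries of a mutant group overlap those of the WT group of their batch, and *Gabra3* has the widest range, from 48.1 to 101 CPM.

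*Gabra3* encodes α3, a subunit best known from monoamine neurons, the reticular thalamus and deep cortex. It was at 75.2, 89.0 and 82.0 CPM in WT replicates 1 to 3 of batch 1, at 72.8, 65.8 and 101 CPM in APP-TKI replicates and at 85.8, 95.3 and 98.9 CPM in DM replicates. In batch 2 it was at 61.8, 85.7 and 69.5 CPM in WT replicates and at 62.8, 75.6 and 48.1 CPM in ApoE4 replicates. The DM libraries lay in the upper part of the batch 1 range, together with APP-TKI replicate 3 and WT replicate 2, and ApoE4 replicate 3, the library with high striatal markers, was the lowest of all. The fitted log2 difference was 0.19 in DM against WT (95% interval -0.11 to 0.48), -0.036 in APP-TKI against WT (-0.33 to 0.26), 0.22 in DM against APP-TKI (-0.070 to 0.51) and -0.22 in ApoE4 against WT (-0.63 to 0.19). With 1 library left out, the value in DM against APP-TKI ranged from 0.098 (without APP-TKI replicate 2) to 0.43 (without APP-TKI replicate 3, adjusted p = 0.402). In ApoE4 against WT it was -0.38 when ApoE4 replicate 2 was dropped and -0.064 when replicate 3 of that group was.

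The *APOE4* difference in *Gabra3* was thus fitted higher with mutant *App* (batch 1) than without (batch 2) by 0.44 on the log2 scale. The SE was 0.24 and the interval -0.065 to 0.94. This p was the smallest of the 35 fits, and it did not pass (adjusted p = 0.733 with the quasi-likelihood test of edgeR over all genes). Single libraries moved it. Without APP-TKI replicate 3 the value was 0.65 (adjusted p = 0.395), and *Gabra3* in APP-TKI against WT went from -0.036 to -0.24 (adjusted p = 0.818). Leaving out ApoE4 replicate 3 and WT replicate 3 of batch 2, the libraries with high striatal or thalamic markers, gave 0.31 (adjusted p = 0.995). Where ApoE4 replicate 1 was left out as well, for its choroid plexus markers, the value was 0.19 (adjusted p = 0.999). With no filter on low counts *Gabra3* passed (0.42, adjusted p = 0.0366), and so did 393 genes in all, against 0 with the filter.

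*Gabrb2* encodes β2, part of the most common receptor type of the adult brain. In batch 1 it was at 120, 147 and 132 CPM in WT, 125, 126 and 149 CPM in APP-TKI and 123, 155 and 160 CPM in DM replicates 1 to 3. In batch 2, WT replicates were at 120, 151 and 139 CPM and ApoE4 replicates at 131, 128 and 118 CPM. DM replicates 2 and 3 were the highest of the batch, and DM replicate 1 was near the lowest. Log2 differences were 0.14 in DM against WT (interval -0.099 to 0.38), 0.13 in DM against APP-TKI (-0.10 to 0.37) and -0.12 in ApoE4 against WT (-0.32 to 0.076). In APP-TKI against WT the value was 0.0053 (-0.23 to 0.24). With 1 library left out, DM against WT ranged from 0.068 (without DM replicate 3) to 0.25 (without DM replicate 1), and DM against APP-TKI from 0.062 to 0.24 without the same libraries. In ApoE4 against WT the range was -0.20 (without WT replicate 1) to -0.045 (without WT replicate 2), and no adjusted p in these fits was under 0.591. The *APOE4* difference was fitted higher with mutant *App* (batch 1) than without (batch 2) by 0.25. The interval was -0.074 to 0.58 (adjusted p = 0.755 with the quasi-likelihood test of edgeR).

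*Gabrb1*, the gene of β1, varied least over all 15 libraries and in batch 1, while in batch 2 *Gabra4* and *Gabra2* had a smaller SD. Its 9 libraries of batch 1 lay between 261 and 289 CPM. WT replicates were at 276, 271 and 273 CPM, APP-TKI replicates at 267, 261 and 289 CPM and DM replicates at 261, 279 and 274 CPM. In batch 2 the levels were 279, 275 and 242 CPM in WT and 235, 286 and 259 CPM in ApoE4 mice. The groups overlapped in both batches. Log2 differences were -0.0088 in DM against WT (interval -0.13 to 0.11), -0.0053 in APP-TKI against WT (-0.13 to 0.12), -0.0035 in DM against APP-TKI (-0.13 to 0.12) and -0.031 in ApoE4 against WT (-0.23 to 0.17). In batch 1 the intervals leave room for a change of about 0.13 in either direction, the narrowest of the 7 genes.

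*Gabra5*, the gene of α5, stood at 187, 199 and 199 CPM in WT, 193, 193 and 199 CPM in APP-TKI and 168, 199 and 200 CPM in DM replicates. DM replicate 1 was the only batch 1 library under 187 CPM. In batch 2, WT replicates were at 213, 178 and 160 CPM and ApoE4 replicates at 171, 180 and 171 CPM, so that the WT libraries held both the highest and the lowest value of all 15. Log2 differences ranged from -0.078 in ApoE4 against WT (interval -0.30 to 0.15) to -0.0021 in APP-TKI against WT (-0.15 to 0.15).

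*Gabra2*, the gene of α2, was at 143, 119 and 120 CPM in WT, 133, 138 and 130 CPM in APP-TKI and 135, 121 and 123 CPM in DM replicates of batch 1. WT replicate 1 was the highest library of all. In batch 2 it was at 123, 112 and 104 CPM in WT and 107, 123 and 111 CPM in ApoE4 mice. Log2 differences were 0.068 in APP-TKI against WT (interval -0.10 to 0.24), -0.084 in DM against APP-TKI (-0.25 to 0.084), -0.015 in DM against WT (-0.18 to 0.15) and 0.016 in ApoE4 against WT (-0.16 to 0.20).

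**Figure D3:**
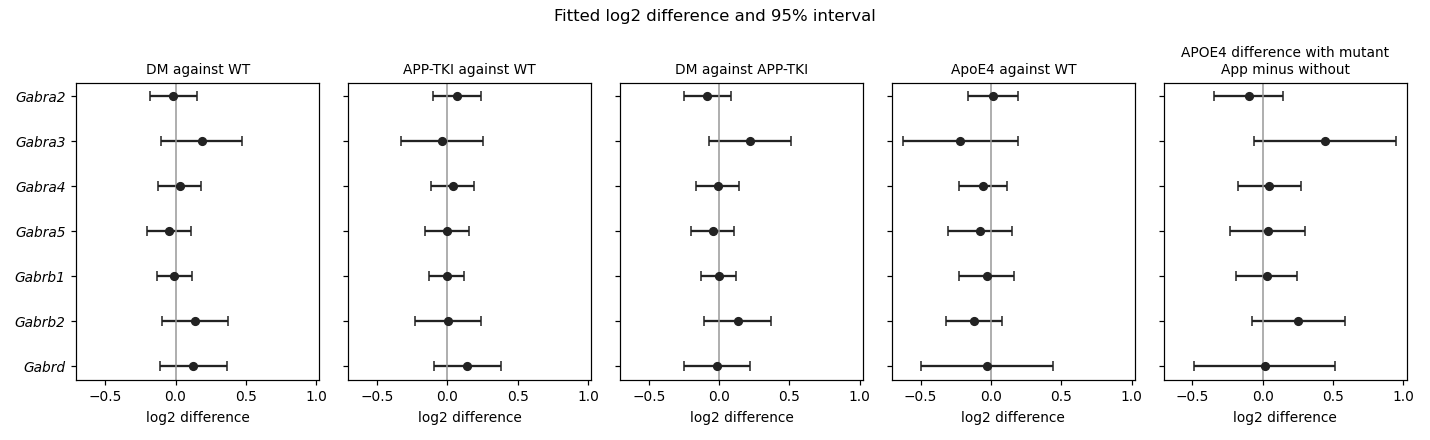
Fitted log2 difference (x axis) of each subunit gene (y axis) in the 5 comparisons, with the 95% interval of the quasi-likelihood fit as whiskers and a line at 0. Every interval includes 0, the point for *Gabra3* in the last panel lies farthest from it at 0.44, and the intervals of *Gabrb1* in batch 1 are the narrowest.

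*Gabra4* and *Gabrd* encode the α4 and δ subunits of the receptors that carry a steady current in dentate granule cells. *Gabra4* was at 111, 120 and 116 CPM in WT, 113, 118 and 126 CPM in APP-TKI and 107, 124 and 123 CPM in DM replicates. In batch 2 it was at 105, 108 and 121 CPM in WT and 102, 103 and 117 CPM in ApoE4 mice. Its log2 differences lay between -0.057 in ApoE4 against WT (interval -0.23 to 0.12) and 0.039 in APP-TKI against WT (-0.11 to 0.19).

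*Gabrd* was the least abundant of the 7, with 643 to 1362 counts a library. It was at 23.7, 19.8 and 21.5 CPM in WT, 24.4, 27.4 and 19.9 CPM in APP-TKI and 23.4, 23.6 and 23.97 CPM in DM replicates. In batch 2 WT replicates were at 22.6, 21.5 and 30.6 CPM and ApoE4 replicates at 22.1, 19.5 and 31.6 CPM. Its log2 difference was 0.13 in DM against WT (interval -0.11 to 0.36), 0.14 in APP-TKI against WT (-0.095 to 0.38) and -0.030 in ApoE4 against WT (-0.50 to 0.44), the last with the widest interval of the 4 *Gabrd* comparisons within a batch.

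In batch 2 the highest *Gabrd* and *Gabra4* values both fell in replicate 3 of each group, the libraries with high striatal or thalamic markers. The 2 libraries had 30.6 and 31.6 CPM of *Gabrd* against 19.5 to 22.6 CPM in the other 4, and 121 and 117 CPM of *Gabra4* against 102 to 108 CPM. The part of those tissues in the values was not tested. Without the 2 libraries the log2 difference between ApoE4 and WT mice was -0.085 for *Gabrd* (SE 0.091) and -0.056 for *Gabra4* (SE 0.052). In that fit 0 of 7 subunit genes were called, as were 0 of all 16171 genes.

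Spread between libraries of a group differed widely between the subunit genes. The pooled SD of log2 CPM within groups was 0.24 for *Gabra3* and 0.24 for *Gabrd*, 0.15 for *Gabrb2*, 0.12 for *Gabra5*, 0.11 for *Gabra2*, 0.096 for *Gabra4* and 0.090 for *Gabrb1*. Set against genes whose mean log2 level lies within 0.5 of theirs, the SD was larger than that of 98.1% of genes for *Gabra3*, 94.6% for *Gabrd* and 90.9% for *Gabrb2*. In batch 1, *Gabrb1* at 0.053 was less variable than most, with 17.6% of such genes below it. These shares describe the libraries and were not tested.

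In batch 1, part of the spread ran along the noncoding share, which differed between libraries of the same genotype. The split into 4 and 5 libraries was made after seeing the data. In batch 1, *Gabra2* was at 133 to 143 CPM in the 4 libraries with the highest share of long noncoding and antisense counts and at 119 to 130 CPM in the other 5. The order was the opposite for *Gabrb2*, at 120 to 126 CPM in the 4 and 132 to 160 CPM in the 5, and for *Gabra5*, at 168 to 193 CPM against 199 to 200 CPM. These 3 of 7 genes did not overlap between the 2 sets of libraries, as did 22.4% of all 16171 genes. *Gabra3* (65.8 to 85.8 against 82.0 to 101 CPM) and *Gabra4* (107 to 118 against 116 to 126 CPM) were lower in the 4 as well, with overlap. WT had 1 of these libraries, APP-TKI 2 and DM 1, and what the share reflects was not tested. Pearson's r of log2 CPM with the log2 share went from -0.82 in batch 1 to 0.45 in batch 2 for *Gabra4*. It went from -0.78 to 0.13 for *Gabra5* and from -0.60 to 0.25 for *Gabrb1*. The sign stayed for *Gabra2* (0.86 and 0.32), *Gabra3* (-0.65 and -0.64), *Gabrb2* (-0.82 and -0.75) and *Gabrd* (0.53 and 0.54).

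With the share as a covariate, an alternative chosen after seeing the data, 0 of 7 genes were called in each comparison, where 0.284%, 0.210%, 0.0989%, 0% and 0.00618% of all genes were. In DM against WT 2 of 7 had an unadjusted p under 0.05, as did 9.49% of all genes, with *Gabra3* at 0.19 and *Gabrb2* at 0.13 (unadjusted p = 0.0499 and 0.0356, adjusted p = 0.525 and 0.489 with the quasi-likelihood test of edgeR). Without the 4 libraries, where APP-TKI is left with 1 library whose spread is taken from the other groups, *Gabra3* passed in APP-TKI against WT (0.25, adjusted p = 0.0790), as did 342 genes (2.11%) in all, against 1 with all libraries. In DM against WT, 0 of 7 passed without the 4 libraries, where 131 genes (0.810%) passed in all, against 2 with all libraries. At an unadjusted p under 0.05, 3 of 7 subunit genes and 9.96% of all genes passed. The log2 differences of the 3 were 0.18 for *Gabra3* (adjusted p = 0.195), 0.18 for *Gabrb2* (adjusted p = 0.205) and 0.20 for *Gabrd* (adjusted p = 0.403).

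**Figure D4:**
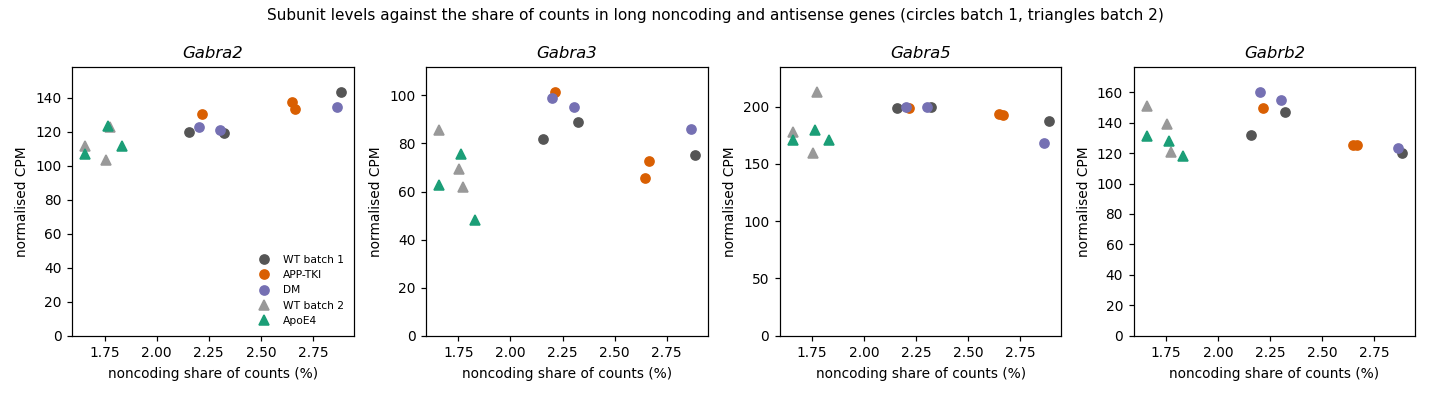
Normalised CPM (y axis, from 0) of 4 subunit genes against the percent of counts in long noncoding and antisense genes (x axis), 1 point a library, with circles for batch 1 and triangles for batch 2. The 4 circles at 2.65 to 2.88% lie above the other 5 for *Gabra2* and below them for *Gabra5* and *Gabrb2*, with overlap for *Gabra3*.

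Across libraries *Gabra3* and *Gabrb2* varied together in both batches. Pearson's r of their log2 CPM was 0.83 over the 9 libraries of batch 1 and 0.83 over the 6 of batch 2, and 0.81 over all 15 once each batch was centred on its mean (Spearman's rho 0.82). *Gabra3* and *Gabrd* varied in opposite directions, with r = -0.64 and -0.62 in the batches. Of the 21 pairs of subunit genes, 10 had the same sign in both batches. *Gabra4* and *Gabrb1*, whose starts overlap, had r = 0.71 in batch 1 and -0.36 in batch 2, and *Gabra4* and *Gabra5* had 0.83 and -0.55. *Gabra4* and *Gabrd* had -0.31 in batch 1 and 0.92 in batch 2, where both were highest in the replicates with striatal or thalamic markers. All of these points share libraries, scaling and tissue composition, so they are given as descriptions.

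**Figure D5:**
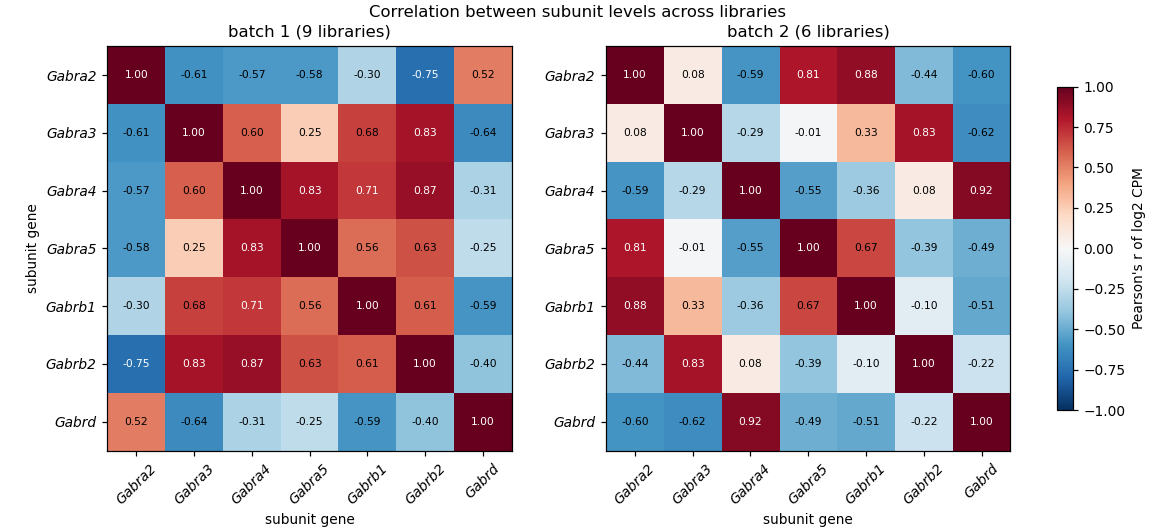
Pearson's r of log2 CPM between subunit genes (rows and columns) over the 9 libraries of batch 1 and the 6 of batch 2, red for positive and blue for negative values. *Gabra3* with *Gabrb2* is at 0.83 in both panels, while *Gabra4* with *Gabrb1* goes from 0.71 to -0.36.

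The genes most like each subunit gene over the 15 libraries, with each batch centred, were taken from 11407 protein-coding genes with a mean of at least 5 CPM. For *Gabra3* these were *Timp2*, an inhibitor of metalloproteinases (r = 0.95), and *Slc4a10*, a bicarbonate transporter of neurons (0.95). *Gabrb2* was most like *Rheb*, a GTPase that activates mTOR complexes (0.95), and *Apmap* (0.94). For *Gabra2* the genes were *Eml6* (0.96) and *Sec61a2*, a subunit of the protein translocon (0.94). *Gabra5* followed *Neurod6* (0.92) and *Zbtb18* (0.92), both transcription factors of glutamatergic neurons, and *Gabrb1* followed *Crym*, a thyroid hormone-binding protein (0.90), and *Pnma2* (0.89). *Gabra4* was most like *Blmh*, a cysteine protease (0.87), and *Xiap*, an inhibitor of caspases (0.87), and *Gabrd* was most like *Fam84b* (0.92) and *Rap1gap*, which turns off the GTPase Rap1 (0.88). The highest of 11407 correlations is high by selection, and no p is given.

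Other genes of GABA signalling were not called either at an adjusted p under 0.1 in any of the 5 comparisons. The count was 0 of 7 tested members of the other GABA-A and GABA-rho subunits (12 listed) and 0 of 18 genes of receptor anchoring and trafficking. It was 0 of 10 genes of GABA synthesis, transport and the chloride gradient and 0 of 6 GABA-B receptor genes. Over all genes 0.0124%, 0.00618%, 0%, 0% and 0% were called, in the order used above. At an unadjusted p under 0.05 in the same test, 2 of 7 other GABA-A subunits passed in ApoE4 against WT, as did 5.99% of all genes. In the difference between the *APOE4* effects 2 of 7 passed, as did 6.85% of all genes. The subunit genes described above had a median log2 difference of 0.029 in DM against WT (all genes 0.012), 0.0053 in APP-TKI against WT (all genes 0.013), -0.011 in DM against APP-TKI (all genes 0.0012) and -0.057 in ApoE4 against WT (all genes -0.011). The other GABA-A subunits had 0.074, 0.0099, 0.064 and 0.16 in the same order. Summed over the 12 listed, they were at 848 to 896 CPM in ApoE4 and 892 to 1006 CPM in WT mice of batch 2. Among them *Gabrg3*, the gene of γ3, was at 24.6, 28.3 and 24.4 CPM in WT and 29.5, 28.4 and 37.8 CPM in ApoE4 mice (log2 difference 0.31, interval 0.031 to 0.59, adjusted p = 0.761 with the quasi-likelihood test of edgeR). The highest *Gabrg3* value was in ApoE4 replicate 3, the library with high striatal markers. The part of striatal tissue in this was not tested. *Gabrq*, the gene of θ, was at 0.587 to 4.60 CPM in batch 2.

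*Slc32a1*, the transporter that loads GABA into vesicles, was at 66.2, 90.1 and 77.2 CPM in WT and 105, 84.5 and 128 CPM in ApoE4 mice (log2 difference 0.44, unadjusted p = 0.0266, adjusted p = 0.761). *Gad2*, a GABA-synthesising enzyme, was at 138, 204 and 195 CPM in WT and 221, 189 and 289 CPM in ApoE4 mice (0.38, adjusted p = 0.761). Both were highest in ApoE4 replicate 3, and the part of striatal tissue in this was not tested. In APP-TKI against WT *Slc32a1* had a log2 difference of -0.21 (interval -0.34 to -0.071, adjusted p = 1.00). *Slc6a13*, a GABA transporter of meninges and other non-neuronal cells, had the smallest p of these genes in DM against WT (0.64, interval 0.28 to 0.99, adjusted p = 0.516). There 6 of 7 fibroblast, 7 of 7 ependymal and 8 of 8 endothelial markers were fitted higher (medians 0.44, 1.53 and 0.37), as were 54.9% of all genes. Summed fibroblast markers overlapped, at 99.7 to 110 CPM in DM and 82.2 to 106 CPM in WT mice. The part of these cell types in *Slc6a13* was not tested. Of GABA-B receptor genes, *Kctd8*, an auxiliary subunit, had -0.36 in APP-TKI against WT and 0.41 in DM against APP-TKI (adjusted p = 1.00 and 0.987 with the quasi-likelihood test of edgeR). In ApoE4 against WT 5 of 6 GABA-B receptor genes were fitted lower, with a median of -0.18 (all genes -0.011). There 2 of 6 had an unadjusted p under 0.05, as did 5.99% of all genes. They were the auxiliary subunit genes *Kctd16* (-0.23, interval -0.46 to -0.011) and *Kctd12b* (-0.52, interval -1.02 to -0.013), both with an adjusted p of 0.761. *Kctd12b* was at 5.90, 6.45 and 9.68 CPM in WT and 5.23, 5.94 and 4.22 CPM in ApoE4 mice. *Kctd16* was at 28.1, 29.2 and 27.7 CPM and 20.5, 25.6 and 26.2 CPM. GABA-B receptor genes summed to 1162, 1141 and 1340 CPM in WT, highest in replicate 3 with its thalamic markers, and 1133 to 1173 CPM in ApoE4 mice. The part of thalamic tissue in this was not tested. *Gabbr2*, the subunit that couples to G proteins, had log2 differences of -0.12 to 0.071 in the 4 comparisons. Of the trafficking genes, *Hap1*, *Shisa7*, *Iqsec3* and *Gabarapl2* had log2 differences between -0.13 and 0.19, with adjusted p-values of 0.761 or higher.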

How the data were processed

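RNA of the hippocampus was sequenced in 15 libraries of 5 groups. The deposited table holds whole-number counts of reads per gene. Per the methods and the submitters' processing notes, the authors trimmed with Trimmomatic 0.39, aligned with STAR 2.7.1a to a mouse reference that included human *APOE*, and counted with HTSeq 0.11.2. Human and mouse *APOE* counts were merged, so that row does not check the genotypes.

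Fits used edgeR 4.0.16 and, as an alternative, DESeq2 1.42.0, with limma 3.58.1, in R 4.3.3. Descriptions and figures used Python 3.11.15 and matplotlib 3.10.9. Of 55471 gene IDs, 55230 matched GENCODE M21 (GRCm38), another release than the authors used. The filter asked for over 1 CPM in 3 or more libraries and left 16171 genes. Upper quartile scaling and the quasi-likelihood test of edgeR were applied to batch 1, to batch 2 and to all 15 libraries together, following the filter, scaling and batches of the authors, with Benjamini-Hochberg adjustment over all genes tested and calls at an adjusted p under 0.1. The authors' own test was a robust likelihood ratio test of edgeR, used here as an alternative. Normalised CPM are counts relative to the scaled library size, and log2 CPM has a prior count of 1. The steps were tested on simulated data. Genes named are the chosen subunits, up to 4 genes of each other receptor list with the smallest p within a batch, and the 2 genes most like each subunit gene. The genes and lists were chosen with earlier results of these data known, and a few single genes are not reported here.

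Chi-square per degree of freedom between the counts of libraries of a group was 4.96 to 27.0, so none was a copy of another. Replicate numbers are in the labels, with no statement of what they share. Deviations from the group means correlated between same-numbered DM and WT libraries at 0.45, 0.19 and 0.30. Libraries of unlike number correlated at -0.333 to 0.115 in these groups, and replicate 2 of DM with replicate 3 of WT at 0.108. Replicate 1 of DM and of WT were both in the set with the highest noncoding share. Whether these correlations go with a pairing by number or with the noncoding share was not tested. APP-TKI replicate 2, of high share, correlated at 0.32 with WT replicate 1 and at -0.32 with WT replicate 2. With DM replicates 1 and 2 the values were 0.19 and -0.12. In the other pairs of groups at least 1 of 3 correlations between same-numbered libraries was below 0.1. Alternatives were another test, scaling, filter, gene set or threshold, other libraries in the fit, a replicate block and each library left out.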

Additional observations from a re-analysis of the deposited data

How the results depend on the processing

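Called subunit genes stayed at 0 of 7 in each comparison under DESeq2, the robust likelihood ratio test, TMM scaling, filterByExpr and protein-coding genes only. The count was the same at a threshold of 0.05 and with the 6 libraries compared or all 15 in a fit. It also stayed with the noncoding share as a covariate and each library left out. Few genes of any kind were called in many of these settings. TMM scaling, filterByExpr and protein-coding genes only each called 2 of all genes in DM against WT and 1 in APP-TKI against WT. They called 0 in the other comparisons, and the threshold of 0.05 gave the same counts. With a library left out, 0 to 29 of all genes were called. The replicate block also gave 0 of 7 in each, while calls over all genes in DM against WT went from 2 to 11. *Gabra3* became the 1 called gene in the difference between the *APOE4* effects with no filter (0.42), and the 1 called gene in APP-TKI against WT without the 4 libraries of high noncoding share (0.25, a reversal of sign), where calls over all genes were 342 in APP-TKI against WT, 131 in DM against WT and 163 in DM against APP-TKI. Of 714 alternative log2 differences, 642 kept their direction and side of the threshold, 71 changed sign and 1 passed with its sign kept. Some fits left out a library of no group in the comparison, where the value could hardly move. *Gabra3* in APP-TKI against WT without the 4 libraries is among the 71 changes of sign. The cause of these changes was not tested. Calls over all genes follow for DM against WT, APP-TKI against WT, DM against APP-TKI and ApoE4 against WT, in that order. The difference between the *APOE4* effects comes last. Calls were 2, 1, 0, 0 and 0 with the quasi-likelihood test used above, and 50, 25, 18, 48 and 26 with DESeq2. The robust test, the kind the authors used, gave 136, 50, 53, 125 and 121. Calls were 179, 83, 109, 12 and 393 with no filter, and 46, 34, 16, 0 and 1 with the covariate. With the replicate block they were 11, 9, 1, 0 and 0. DM against WT had 30 with only its 6 libraries in the fit. None of these are the study's own counts.

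Other changes of sign were as follows. *Gabrb2* in APP-TKI against WT was -0.0069 with DESeq2, -0.0053 with filterByExpr, -0.015 with no filter, -0.0033 with protein-coding genes only and -0.0055 with TMM. *Gabrb1* in DM against APP-TKI was 0.0019 with filterByExpr and 0.0031 with no filter, *Gabra2* in DM against WT was 0.011 with the robust test, and *Gabrd* in the difference between the *APOE4* effects was -0.00085 with no filter. With the noncoding share as a covariate, *Gabra5* in APP-TKI against WT was 0.013 and *Gabrd* in DM against APP-TKI 0.0059. Without the 4 libraries of high noncoding share, DM against WT gave 0.028 for *Gabra2*, 0.0034 for *Gabra5* and 0.026 for *Gabrb1*, APP-TKI against WT gave 0.086 for *Gabrb1* and -0.050 for *Gabrd*, and DM against APP-TKI gave -0.064 for *Gabra3*, 0.0078 for *Gabra5* and 0.25 for *Gabrd*. Without the libraries of high striatal or thalamic markers, *Gabra2* in ApoE4 against WT was -0.026. Without those of high choroid plexus markers as well, it was 0.036 for *Gabra3* and 0.044 for *Gabrb1*, and *Gabrb1* in the difference between the *APOE4* effects was -0.047.

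With each library left out in turn, the lowest and highest log2 differences were as follows where a sign changed. In DM against WT they were -0.065 to 0.077 for *Gabra2*, -0.0097 to 0.094 for *Gabra4*, -0.088 to 0.033 for *Gabra5* and -0.030 to 0.019 for *Gabrb1*. In APP-TKI against WT they were -0.24 to 0.087 for *Gabra3*, -0.0047 to 0.074 for *Gabra4*, -0.031 to 0.013 for *Gabra5*, -0.050 to 0.023 for *Gabrb1* and -0.084 to 0.083 for *Gabrb2*. In DM against APP-TKI they were -0.049 to 0.054 for *Gabra4*, -0.086 to 0.035 for *Gabra5*, -0.032 to 0.041 for *Gabrb1* and -0.13 to 0.093 for *Gabrd*. In ApoE4 against WT they were -0.044 to 0.082 for *Gabra2*, -0.12 to 0.0083 for *Gabra4*, -0.17 to 0.042 for *Gabra5*, -0.10 to 0.036 for *Gabrb1* and -0.26 to 0.15 for *Gabrd*. In the difference between the *APOE4* effects they were -0.019 to 0.11 for *Gabra4*, -0.086 to 0.12 for *Gabra5*, -0.039 to 0.10 for *Gabrb1* and -0.16 to 0.25 for *Gabrd*. The sign stayed, with ranges of more than 1.5 times, in DM against WT for *Gabra3* (0.13 to 0.25), *Gabrb2* (0.068 to 0.25) and *Gabrd* (0.068 to 0.20), in APP-TKI against WT for *Gabra2* (0.024 to 0.16) and *Gabrd* (0.034 to 0.26), in DM against APP-TKI for *Gabra2* (-0.13 to -0.056), *Gabra3* (0.098 to 0.43) and *Gabrb2* (0.062 to 0.24), in ApoE4 against WT for *Gabra3* (-0.38 to -0.064) and *Gabrb2* (-0.20 to -0.045), and in the difference between the *APOE4* effects for *Gabra2* (-0.17 to -0.040), *Gabra3* (0.29 to 0.65) and *Gabrb2* (0.18 to 0.36).

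Each subunit gene had 643 or more counts in each library. With 3 libraries a group, the 95% intervals within a batch reach up to 0.51 in batch 1 and down to -0.63 in batch 2 on the log2 scale.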
